A study of Rattus norvegicus with 9 samples.

Results

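Glutathione S-transferases (GSTs) were followed in rat liver through 10 genes, one from the alpha class (Gsta4), the mu class genes Gstm1, Gstm2, Gstm4 and Gstm7, the pi class gene Gstp1, the theta class genes Gstt1 and Gstt2, the kappa class gene Gstk1 and the omega class gene Gsto1. The genes were chosen by name: every probe set whose only gene symbol was one of these 10 was taken. That gave 11 probe sets, 2 of them for Gstt2, out of 31042 probe sets on the array, or 10 of the 14217 genes with a probe set of their own. All 11 lay above the filter for dim probe sets, which kept 18625 probe sets and 10432 genes. The livers came from male Wistar rats, per the labels, of 180 to 220 g. A drug group (labelled 7-P), a model group and a control group held 12 rats each out of 36, and 3 rats per group, drawn at random, had their liver RNA hybridised to 1 Affymetrix array each. The sources used here do not say what the model treatment was, what 7-P is, at what dose or time it was given or how old the rats were, and they name no genetic change in any group.

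GSTs join the thiol of glutathione to electrophilic compounds, among them drug metabolites and the reactive aldehydes formed when membrane lipids are oxidised, and the conjugates are then exported and trimmed to mercapturic acids. The liver holds large amounts of the soluble alpha and mu class enzymes, which act as dimers, while the kappa class enzyme sits in mitochondria and peroxisomes. Many GST genes are induced by the transcription factor NRF2, which binds antioxidant response elements, and by the xenobiotic receptors CAR and PXR.

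Promoters of these genes are shown as sequence, and a link between their matches and the signals was not tested. RefSeq promoter sequences (GRCr8 build, 250 bases before to 50 bases after the transcription start) were at hand for 8 of the 10 genes. The genes without one were Gstt1 and Gstt2. They were searched on both strands for the antioxidant response element core TGACNNNGC, the AP-1 element TGACTCA, the GC box GGGCGG, the CCAAT box and the TATA box TATAAA. The antioxidant core and the AP-1 element can overlap. The 4 promoters below, 5′ to 3′ on the strand of the gene with matches in capitals, are those of Gstm7 (chr2:198260270-198260569, minus strand), Gstp1 (chr1:210769656-210769955, minus strand), Gstm2 (chr2:198316868-198317167, minus strand) and Gstm4 (chr2:198373334-198373633, minus strand).
Gstm7: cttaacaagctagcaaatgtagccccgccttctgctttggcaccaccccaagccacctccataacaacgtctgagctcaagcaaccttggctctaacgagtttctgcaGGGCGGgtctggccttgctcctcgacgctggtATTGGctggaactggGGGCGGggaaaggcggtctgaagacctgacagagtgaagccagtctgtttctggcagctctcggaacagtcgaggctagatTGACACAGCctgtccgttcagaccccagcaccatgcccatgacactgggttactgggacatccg
Gstp1: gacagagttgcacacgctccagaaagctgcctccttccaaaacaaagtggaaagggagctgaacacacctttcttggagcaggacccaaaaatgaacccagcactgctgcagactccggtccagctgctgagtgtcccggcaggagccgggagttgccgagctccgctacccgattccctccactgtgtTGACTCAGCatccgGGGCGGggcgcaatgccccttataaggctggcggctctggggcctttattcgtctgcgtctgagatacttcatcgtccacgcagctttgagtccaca
Gstm2: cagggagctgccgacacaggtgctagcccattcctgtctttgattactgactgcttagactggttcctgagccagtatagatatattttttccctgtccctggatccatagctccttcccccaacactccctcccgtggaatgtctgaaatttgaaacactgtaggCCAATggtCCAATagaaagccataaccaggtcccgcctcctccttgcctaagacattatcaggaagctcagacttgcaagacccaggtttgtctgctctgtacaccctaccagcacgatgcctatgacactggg
Gstm4: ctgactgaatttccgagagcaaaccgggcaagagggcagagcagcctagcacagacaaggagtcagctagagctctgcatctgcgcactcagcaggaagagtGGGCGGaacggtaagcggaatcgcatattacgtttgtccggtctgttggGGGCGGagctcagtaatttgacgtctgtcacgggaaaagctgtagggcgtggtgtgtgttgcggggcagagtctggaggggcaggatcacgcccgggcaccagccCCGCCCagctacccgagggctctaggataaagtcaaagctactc
The antioxidant core was found in 2 of the 8 promoters, as TGACACAGC starting at position -14 of Gstm7 and as TGACTCAGC starting at -61 of Gstp1, where it contains the AP-1 element. The AP-1 element was also found at position 25 of Gsto1, on the other strand. Of all 33469 promoters of this length, 12.1% held the core and 4.63% the AP-1 element. The Gstm2 promoter held a pair of CCAAT boxes at -84 and -76, and that of Gstm4 held GC boxes at -148, -99 and 7, the last on the other strand. CCAAT boxes were present in 37.5% of all promoters, GC boxes in 33.1% and the TATA box in 14.2%. Among the members, the promoters of Gsta4, Gstm1, Gstm2, Gstm7 and Gstk1 held CCAAT boxes. Those of Gsta4, Gstm4, Gstm7, Gstp1, Gstk1 and Gsto1 held GC boxes, and that of Gstm1 held the TATA box. The Gstm7 and Gstp1 promoters are shown for the antioxidant core, and those of Gstm2 and Gstm4 as the mu class genes without it whose signals differed most. Such a match describes letters in this window only.

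Values are log2 signals after quantile normalization, and differences are log2 differences with the standard error (SE) of 1 limma fit over all 9 arrays. Passing means a p under 0.05 after Benjamini-Hochberg adjustment over the 18625 probe sets. In bulk liver, fewer cells of a type and less RNA per cell cannot be told apart. Deposited signals were not on a common scale, with trimmed means of 33.2 to 66.5 in drug, 34.5 to 43.4 in model and 34.1 to 80.4 in control arrays. All 11 measured hepatocyte markers, among them albumin, lay above the filter, and their summed signal was 47689 to 49600 in drug, 44933 to 49980 in model and 49004 to 49815 in control arrays. The Gapdh 3′ to 5′ signal ratio, a measure of how much of the transcripts' 5′ ends was captured, was 1.31, 9.20 and 8.71 in drug, 4.09, 12.7 and 9.77 in model and 1.52, 3.14 and 3.07 in control arrays. Xist was at 3.05 in drug 3 and 2.65 in control 2, against 8.06 to 10.9 in the other arrays, and the Y-linked Eif2s3y was at 7.17 and 6.99 there, against at most 2.53 elsewhere. The male-specific hydroxylase Cyp2c11 was at 12.1 in drug 3 and 11.3 in control 2 and at most 5.22 elsewhere, so 7 of the 9 arrays did not carry the sex-linked signals of their label.

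GST signals were mostly lower in model than in control livers. Of the 10 genes 9 had a lower mean in the model livers and 1 a higher one, against 48.9% lower and 51.1% higher among all probe sets. Their median difference was -0.54, beside 0.013 over all genes. It was -0.88 with median centring (-0.072 over all probe sets) and -1.21 without normalization (-0.40 over all probe sets). In 6 of the 10, Gstm2, Gstm4, Gstm7, Gstp1, Gstt1 and Gsto1, every model array lay below every control array, which held for 10.9% of all probe sets. No GST gene passed, and 0 of the 18625 probe sets did (0%), the smallest limma adjusted p being 0.219. At an unadjusted p under 0.05, 3 of the 10 genes were lower and 0 higher, against 5.54% lower and 6.51% higher among all probe sets (12.1% either way). That count was 5 with median centring, against 11.6% of all probe sets either way, and 6 without normalization, against 8.72%. Summed signals of some other liver cell markers also differed in this comparison. A sum is led by its brightest genes, so a centred mean is given beside it. That is the mean of the markers' log2 signals, each minus its own mean over all arrays. The summed signal of the 7 measured of 8 sinusoidal endothelial markers was 866 to 1211 in model and 687 to 796 in control arrays, and 611 to 722 in drug arrays, all below the model arrays. Their centred mean was 0.096 to 0.41 in model and -0.28 to 0.12 in control arrays, which overlapped. In drug arrays it was -0.34 to -0.11. All 8 stellate cell and fibroblast markers summed to 757 to 913 in model and 513 to 667 in control arrays, and to 536 to 784 in drug arrays. Their centred mean was -0.27 to 0.19 in model, -0.072 to 0.26 in control and -0.39 to -0.016 in drug arrays, so these groups overlapped. Col3a1, the brightest of them, was higher in every model than in every control array, while Col1a2 was lower in every model array. The 4 measured of 6 neutrophil markers summed to 433 to 2664 in model and 119 to 333 in control arrays, and to 138 to 1464 in drug arrays. Their centred mean was -0.67 to 2.84 in model, -0.89 to -0.26 in control and -1.1 to 0.57 in drug arrays, again with overlap. All of these measured markers lay above the filter. Summed signals of the Kupffer cell and macrophage, T and natural killer cell and erythroid lists overlapped between model and control arrays. The part of these cell types in the GST differences was not tested. The plot of signals by group shows the 3 model arrays under the 3 control arrays in the panels of these 6 genes.

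**Figure D1:**
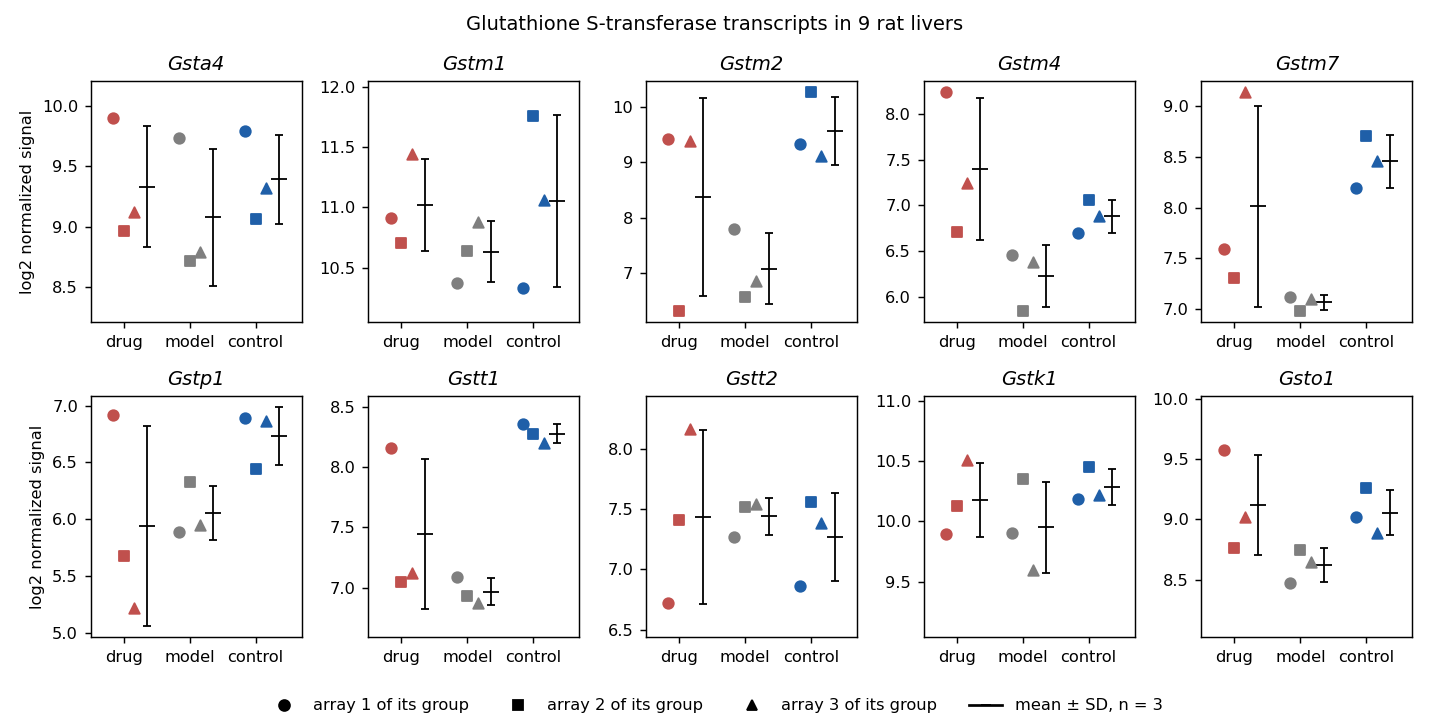
Log2 normalized signal (vertical axis, scale differs between panels) of each GST gene in the drug, model and control livers; each point is 1 array, and the bar beside it is the mean ± SD of 3 arrays. In Gstt1 the model arrays sit between 6.87 and 7.09 and the control arrays between 8.20 and 8.36, while the drug arrays are spread from 7.04 to 8.16.

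In the mu class, whose enzymes handle many epoxides and aromatic electrophiles, Gstm2 showed the widest spread of all members. It stood at 7.80, 6.56 and 6.86 in the model livers and at 9.33, 10.3 and 9.12 in the control livers. The model arrays were all lower, with a difference of -2.50 (SE 0.752), a ratio of 0.177, with a limma adjusted p of 0.384. With the Gapdh ratio as a term in the fit the difference was -1.60, and the Gapdh ratios of model and control arrays, given above, did not overlap (exact permutation test, two-sided, p = 0.1, the lowest value possible with 3 arrays a group). The part of RNA quality in these differences was not tested.

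Gstm7, another mu class gene, stood at 7.12, 6.97 and 7.10 in the model livers and at 8.19, 8.71 and 8.46 in the control livers. Its model values lay within a narrow band under all control values, which put them -1.39 (SE 0.416) from control at a limma adjusted p of 0.384. It was -1.69 with the Gapdh term. Gstm4 stood at 6.46, 5.84 and 6.38 in the model livers and at 6.70, 7.06 and 6.88 in the control livers. The groups did not overlap, but the difference of -0.65 (SE 0.371, limma adjusted p = 0.471) was -0.046 with the Gapdh term. Gstm1, the last of the mu class genes, overlapped between the groups, at 10.4, 10.6 and 10.9 in model and 10.3, 11.8 and 11.1 in control livers. Its difference was -0.42 (SE 0.346), -0.065 without control 2, -0.78 without control 1 and -0.73 with the Gapdh term. Mu class genes are close in sequence and lie near one another on chromosome 2, and how far their probe sets share signal was not tested.

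Gstt1, a theta class enzyme known for acting on small halogenated compounds, gave the smallest unadjusted p of the family in this comparison (0.00132, rank 65 of 18625). Its signal was 7.09, 6.93 and 6.87 in the model livers and 8.36, 8.28 and 8.20 in the control livers. The arrays of each group lay close together, with an SD of 0.113 in model and 0.0796 in control livers (n = 3 each). The difference was -1.31 (SE 0.298), a ratio of 0.403, with a limma adjusted p of 0.373, and -0.79 with the Gapdh term. Gstt2, the other theta class gene, overlapped between the groups. Its brighter probe set averaged 7.44 ± 0.154 in model and 7.27 ± 0.363 in control livers (SD, n = 3 each), a difference of 0.17 (SE 0.355). Its dimmer probe set gave -0.22 (SE 0.386), so the 2 probe sets differed in sign, each by less than its SE.

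Gstp1 is the pi class gene, known in rats as the marker of early preneoplastic liver foci and normally low in hepatocytes and present in bile duct cells. It stood at 5.89, 6.33 and 5.95 in the model livers and at 6.89, 6.44 and 6.87 in the control livers. Model arrays were all lower, with a difference of -0.68 (SE 0.401, limma adjusted p = 0.486), and the difference was -0.078 with the Gapdh term. Of 11 bile duct markers 8 were measured and 4 lay above the filter, and the summed signal of the 8 was 81.9 to 148 in drug, 73.7 to 165 in model and 111 to 178 in control arrays, so the ranges overlapped; Krt7 lay below the filter, while Epcam and Krt19 lay above it. The part of bile duct cells in the Gstp1 difference was not tested.

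Gsto1, the omega class enzyme that reduces dehydroascorbate and mixed disulphides, stood at 8.47, 8.75 and 8.65 in the model livers and at 9.02, 9.26 and 8.89 in the control livers. The groups did not overlap, with a difference of -0.43 (SE 0.244, limma adjusted p = 0.470), or -0.20 with the Gapdh term. Gsta4, the alpha class enzyme most active on the lipid peroxidation product 4-hydroxynonenal, overlapped between the groups. It stood at 9.73, 8.71 and 8.79 in the model livers and at 9.79, 9.07 and 9.32 in the control livers, a difference of -0.31 (SE 0.351). It turned to 0.38 with the Gapdh term and ranged from -0.64 without model 1 to -0.11 without control 1. Gstk1, the kappa class enzyme, averaged 9.95 ± 0.376 in model and 10.3 ± 0.147 in control livers (SD, n = 3 each), a difference of -0.34 (SE 0.246) with overlapping arrays. It was -0.16 without model 3, -0.53 without model 2 and -0.59 with the Gapdh term.

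**Figure D2:**
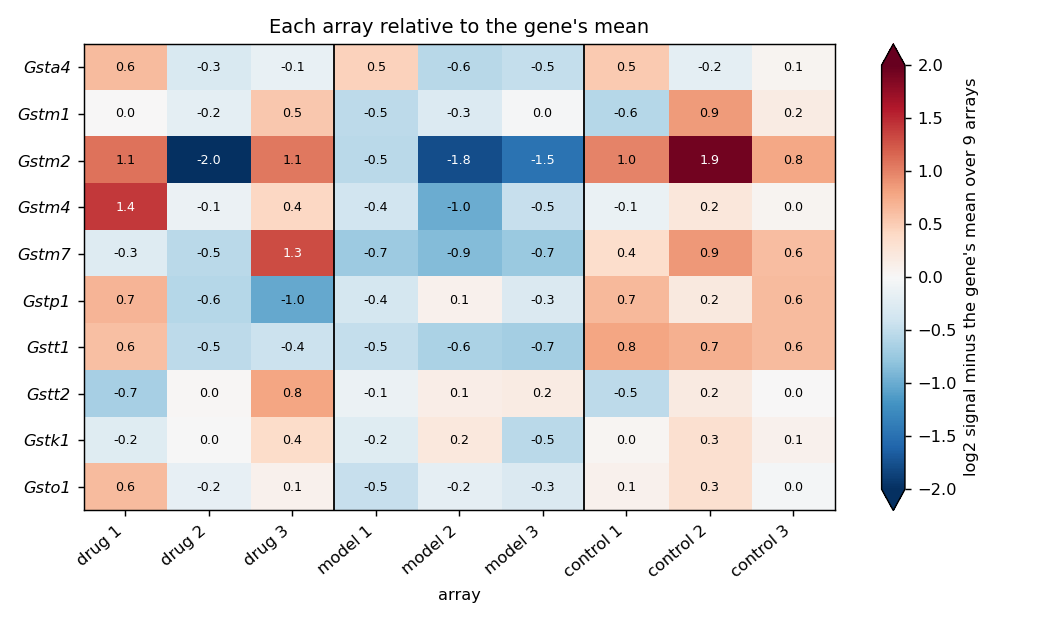
Log2 signal of each GST gene (rows) in each array (columns, drug, model and control) minus the gene's mean over the 9 arrays, with the colour scale from -2 to 2. The model columns are mostly blue, drug 2 is blue or pale, and drug 1 and drug 3 are both red for Gstm2 and Gstm4. For Gsta4, Gstm7, Gstp1, Gstt1, Gstt2 and Gstk1, drug 1 and drug 3 lie on opposite sides of the gene's mean.

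Drug livers had higher mean GST signals than model livers for most of the genes. Of the 10 genes 8 had a higher mean in the drug livers and 2 a lower one, against 47.9% higher and 52.1% lower among all probe sets. Their median difference was 0.43, beside -0.028 over all genes. In 3 of the 10, Gstm4, Gstm7 and Gsto1, every drug array lay above every model array, which held for 3.35% of all probe sets; the opposite held for 0 of the 10 and for 4.7% of all. No GST gene passed and 0 of 18625 probe sets did (0%), with limma adjusted p values of 0.998 for all 10. At an unadjusted p under 0.05, 2 of the 10 genes, Gstm4 and Gstm7, were higher and 0 lower, against 1.47% higher and 1.8% lower among all probe sets (3.28% either way). Without normalization that count was 0, against 0.999% of all probe sets. The count of genes without overlap was then also 0, against 5.51%. With median centring fewer of the genes were without overlap, against 7.46% of all probe sets. This comparison shares the model arrays with the one above, so a gene low in those arrays enters both.

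Gstm4 had the smallest unadjusted p, 0.010, rank 86 of 18625. It stood at 8.24, 6.71 and 7.25 in the drug livers and at 6.46, 5.84 and 6.38 in the model livers. All drug arrays were higher, by 1.18 (SE 0.371), a ratio of 2.26, and the difference was 0.75 without drug 1, the array with the highest value. Gstm7 stood at 7.59, 7.30 and 9.14 in the drug livers and at 7.12, 6.97 and 7.10 in the model livers. Drug 3 was far above the others and the difference of 0.95 (SE 0.416) was 0.38 without it. Gsto1 stood at 9.57, 8.76 and 9.02 in the drug livers and at 8.47, 8.75 and 8.65 in the model livers. Drug 2 was above the highest model array by a narrow margin, and the difference of 0.50 (SE 0.244) was 0.27 without drug 1.

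Gstm2 divided the drug livers, at 9.42, 6.30 and 9.39. Drug 1 and drug 3 lay within the control range, while drug 2 lay below every model array. The difference from the model livers was 1.30 (SE 0.752), and it was 2.33 without drug 2, 0.77 without drug 1 and 0.79 without drug 3. Gstt1 divided them in another way, at 8.16, 7.04 and 7.12. Here drug 1 lay just under the control range and the other drug arrays within or just above the model range, and the difference of 0.48 (SE 0.298) was 0.12 without drug 1 and 0.24 with the Gapdh term. Gstp1, at 6.92, 5.67 and 5.22, was above all control arrays in drug 1 and below all model arrays in drug 2 and drug 3, a difference of -0.12 (SE 0.401) that was -0.61 without drug 1 and turned to 0.24 without drug 3. It was -0.39 with the Gapdh term.

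The remaining genes overlapped between drug and model livers. Gsta4 was at 9.90, 8.97 and 9.13 in the drug livers, 0.25 (SE 0.351) above the model livers, with a range from -0.033 without drug 1 to 0.58 without model 1. Gstm1 was at 10.9, 10.7 and 11.4, a difference of 0.39 (SE 0.346), and 0.18 without drug 3. Gstk1 was at 9.89, 10.1 and 10.5, a difference of 0.23 (SE 0.246), 0.053 without model 3 and 0.43 without model 2. Gstt2 was at 6.72, 7.41 and 8.16 in its brighter probe set, where the difference was -0.0091 (SE 0.355), -0.38 without drug 3 and 0.35 without drug 1, and the dimmer probe set gave 0.57 (SE 0.386).

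**Figure D3:**
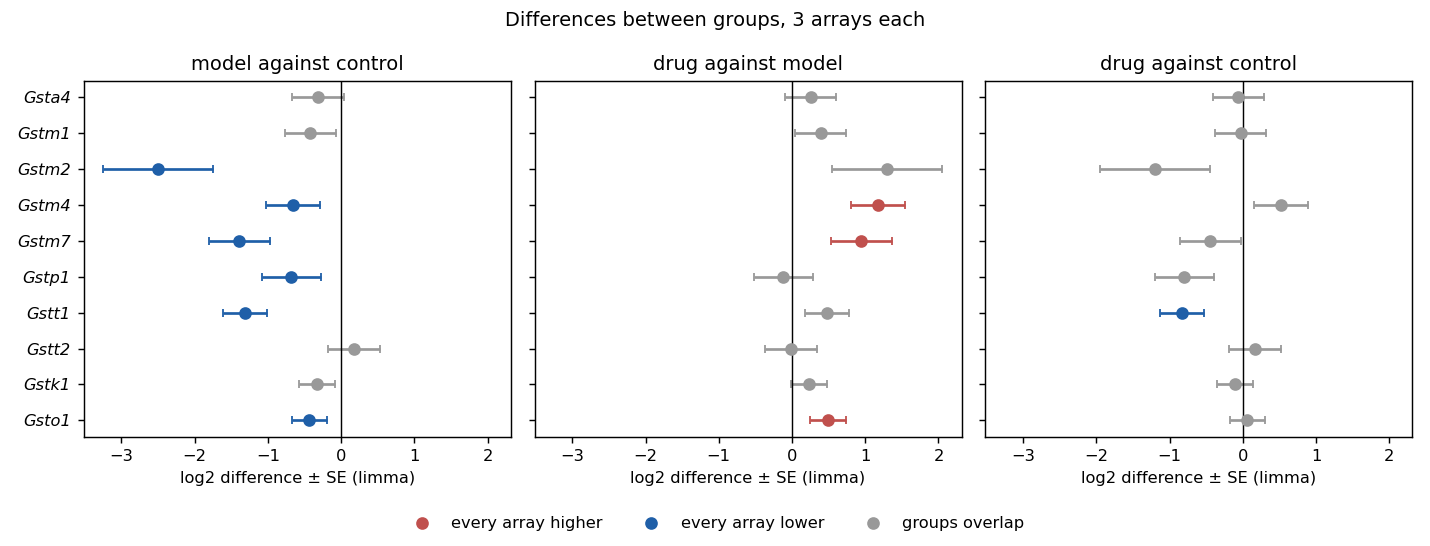
Log2 difference (horizontal axis) of each GST gene ± the SE of the limma fit in model against control, drug against model and drug against control livers, 3 arrays a group; colours mark whether every array of the group named first lay above, below or among those of the other. In the left panel 6 genes lie lower in every array, in the middle panel 3 lie higher and in the right panel Gstt1 alone lies lower.

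In drug against control livers the median difference of the family depended on the normalization. Of the 10 genes 7 had a lower mean in drug livers and 3 a higher one, against 51.5% lower and 48.5% higher among all probe sets. Their median difference was -0.084, beside -0.026 over all genes. It was -0.45 with median centring (-0.072 over all probe sets, 9 of 10 lower), -0.31 with trimmed mean scaling (0.074 over all probe sets, 8 of 10 lower) and -0.74 without normalization (-0.36 over all probe sets, 9 of 10 lower). Gstt1 was the 1 gene whose drug arrays all lay below the control arrays, which held for 6.49% of all probe sets; the opposite held for 0 of the 10 and for 6.05% of all. Its difference was -0.83 (SE 0.298) with an unadjusted p of 0.0188 and a limma adjusted p of 0.683. It was also the 1 gene of the 10 lower at an unadjusted p under 0.05, against 3.03% of all probe sets, with 0 higher against 4.19% (7.22% either way). Over all probe sets 0 passed (0%). Gstp1 followed with -0.80 (SE 0.401, limma adjusted p = 0.696) and Gstm2 with -1.20 (SE 0.752, limma adjusted p = 0.724). The Gstp1 difference was -0.44 without drug 3, -1.29 without drug 1 and -0.46 with the Gapdh term. The Gstm2 difference was -0.17 without drug 2, -1.72 without drug 1 and -0.70 with the Gapdh term, and that of Gstt1 was -0.54 with the term. Gstm4 was on the other side at 0.52 (SE 0.371), 0.099 without drug 1, 0.86 without drug 2 and 0.86 with the Gapdh term. Gstm7 was at -0.44 (SE 0.416), -1.01 without drug 3 and -0.089 without drug 2. Gstt2, Gsta4, Gstm1, Gstk1 and Gsto1 lay between -0.11 and 0.16, each within 1 SE of 0. A moderated F test for any difference between the 3 groups passed for 0 of the 10 genes and for 0 of all probe sets (0%), with 7.45% at an unadjusted p under 0.05. In the family, Gstt1 had the largest F at 9.93 (adjusted p = 0.657 in limma), and 3 more genes, Gstm7, Gstm2 and Gstm4, had F values of 5.82, 5.53 and 5.04 with unadjusted p of 0.021, 0.0241 and 0.0306.

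The drug arrays did not take 1 place between the groups. Over the 6 genes whose model arrays all lay below the control arrays, drug 1 was within the control range for 1, above it for 3 and between the groups for 2. Drug 2 was within the control range for 1, between the groups for 2, within the model range for 1 and below it for 2. Drug 3 was within the control range for 2, above it for 2, between the groups for 1 and below the model range for 1. Drug 1 was the highest drug array in 6 of the 10 genes, Gsta4, Gstm2, Gstm4, Gstp1, Gstt1 and Gsto1, against 38.5% of all probe sets, and it had the lowest Gapdh ratio of the 9 arrays. In 4 of the 10, Gstm1, Gstm7, Gstt2 and Gstk1, drug 3 and control 2, the arrays low in Xist, were the highest of the 9, against 2.96% of all probe sets. Both array patterns were picked after the values were seen. The summed signal of 6 measured male-predominant transcripts, all above the filter, was 17529 in drug 3 and 13125 in control 2 and between 256 and 2987 elsewhere. With drug 3 and control 2 left out, Gstm7 differed by 0.38 in drug against model and by -1.26 in model against control livers. In the same order, Gstm1 differed by 0.18 and -0.065, Gstk1 by 0.062 and -0.25 and Gstt2 by -0.38 and 0.32.

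The array profiles of Gstm2 and Gstt1, the members with the widest spread and with the smallest F test p, were set beside those of all other named genes, by the root mean square (RMS) difference of centred log2 signals over the 9 arrays. Nearest to Gstm2 was Akr7a3, an aflatoxin aldehyde reductase of rat liver, at an RMS difference of 0.489. It stood at 7.36, 5.27 and 7.67 in drug, 6.39, 5.13 and 5.71 in model and 7.03, 7.94 and 6.79 in control livers. A low drug 2, as in Gstm2, follows from choosing genes by likeness over these same arrays. Next were Tmem79 (0.529), Perp (0.543), Pik3c3 (0.543) and Septin8 (0.583). Nearest to Gstt1 were Cdip1 (0.135), the cochaperones Sgta (0.153) and Hspbp1 (0.153), Rabgef1 (0.161) and Tom1 (0.162). Genes with a small spread can reach a small RMS difference more easily, and the arrays are shared by all of these profiles. Among the members, the closest pair was Gstk1 and Gsto1 (0.361) and the farthest Gstm2 and Gstt2 (1.49).

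The other GST and microsomal GST genes were less uniform in the sign of their differences. Of 20 listed, 14 were on the array and 11 above the filter, of which 6 were lower and 5 higher in model than in control livers, with a median of -0.13. In 3 of the 11, Mgst3, Gstz1 and Mgst2, every model array lay below every control array, and in 0 above. Among all probe sets these shares were 10.9% and 11.8%. Mgst3, a microsomal enzyme of leukotriene and glutathione metabolism, was at 6.88, 7.92 and 7.64 in the model livers and at 8.99, 10.2 and 8.95 in the control livers. All model arrays were lower, with a difference of -1.90 (SE 0.461, limma adjusted p = 0.384). Gstz1, the zeta class enzyme of tyrosine breakdown, differed by -0.36 (SE 0.206), with model arrays all below control arrays. In drug against model livers 5 were higher and 6 lower, with a median of -0.0033, and the smallest p were those of Mgst3 at 0.94 (SE 0.461) and Gstz1 at 0.40 (SE 0.206). In 2 of the 11, Gstz1 and Mgst2, every drug array lay above every model array, and in 0 below, against 3.35% and 4.7% of all probe sets. In drug against control livers 5 were higher and 6 lower, with a median of -0.038, and the smallest p were those of Mgst3 at -0.97 (SE 0.461) and Gstcd at -0.27 (SE 0.305). In each comparison 0 passed.

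For the lists that follow, the 2 genes with the smallest unadjusted p in each comparison are given, which need not be those with the largest differences. Of 22 listed genes of glutathione supply and recycling, 20 were on the array and 19 above the filter. Of these 19 genes, 12 were lower and 7 higher in model than in control livers (median -0.15). Smallest in p were Pgd, an NADPH-producing enzyme of the pentose phosphate pathway, at -0.999 (SE 0.524) and Ggt7, of the gamma-glutamyltransferase family, at -1.12 (SE 0.617). Set against model livers, drug livers had 13 of these genes lower and 6 higher (median -0.098). Glrx, the glutaredoxin that uses glutathione to reduce disulphides, was lower in every drug array, with a difference of -0.54 (SE 0.248). Gclc, the catalytic subunit of the rate-limiting enzyme of glutathione synthesis, was higher in every drug array, at 7.68, 7.38 and 7.63 in the drug livers and 7.13, 7.31 and 6.92 in the model livers, a difference of 0.44 (SE 0.218). In drug against control livers 15 were lower and 4 higher (median -0.25). Both Slc3a2, the heavy chain of several amino acid transporters, and Slc25a39, a mitochondrial glutathione carrier, were lower in every drug array, with differences of -0.60 (SE 0.261) and -0.36 (SE 0.202).

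Of 8 glutathione peroxidase and glyoxalase genes, 6 were lower and 2 higher in model than in control livers (median -0.63). The smallest p were those of Glo1, which with glutathione detoxifies methylglyoxal, at -1.03 (SE 0.367) and of Hagh, the next enzyme of that route, at -0.78 (SE 0.293). In drug against model livers 5 of the 8 were higher and 3 lower (median 0.23), with Hagh at 0.58 (SE 0.293) and Glo1 at 0.62 (SE 0.367). In drug against control livers 2 were higher and 6 lower (median -0.26), with Gpx7 at -1.01 (SE 0.376) and Gpx4, which reduces lipid hydroperoxides in membranes, at -0.80 (SE 0.457).

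Of 16 measured genes of conjugate processing and export, 7 were lower and 9 higher in model than in control livers (median 0.13). Acy1, an aminoacylase acting on N-acetylated amino acids, was at 7.75, 8.13 and 7.59 in the model livers and at 8.97, 8.52 and 8.71 in the control livers. It was lower in every model array, with a difference of -0.91 (SE 0.236, limma adjusted p = 0.384). Abcc3, an exporter of conjugates at the basolateral membrane of hepatocytes, stood at 5.29, 5.94 and 4.31 in drug, 4.53, 4.96 and 6.17 in model and 1.72, 1.92 and 4.71 in control livers. Control 3 overlapped both other groups, and the differences were 2.43 (SE 0.788) in model and 2.39 (SE 0.788) in drug against control livers, with limma adjusted p of 0.384 and 0.683. Its signals in control 1 and control 2 were dim, at levels that the filter removes when they are a probe set's mean. The size of these differences is therefore uncertain. Between drug and model livers, 6 of the 16 were higher and 10 lower in drug livers (median -0.066). The smallest p were those of the efflux transporter Abcg2 at -0.97 (SE 0.386), with overlapping arrays, and of Acy1, higher in every drug array, at 0.54 (SE 0.236). Against control livers 8 were higher and 8 lower (median 0.030), with Abcc6, of the same transporter family as Abcc3, second in p at 1.22 (SE 0.688).

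Of 33 listed genes of the NRF2 system outside the GST family, 29 were on the array and 24 above the filter. Of these 24 genes, 12 were lower and 12 higher in model than in control livers (median 0.045). In 8 of them every model array lay below every control array and in 2 above, against 10.9% and 11.8% of all probe sets. At an unadjusted p under 0.05, 4 were lower and 2 higher, against 5.54% and 6.51% of all probe sets. The smallest p were those of the transketolase Tkt at -1.18 (SE 0.314) and the UDP-glucose dehydrogenase Ugdh at 0.55 (SE 0.188). In drug against model livers 14 were higher and 10 lower (median 0.11), with the carbonyl reductase Cbr1 at -0.80 (SE 0.327) and Tkt at 0.74 (SE 0.314). Against control livers 10 were higher and 14 lower (median -0.045), with the peroxiredoxin Prdx6 at -0.79 (SE 0.347) and the transaldolase Taldo1 at -0.45 (SE 0.232). Of 22 listed genes of the CAR and PXR system, 18 were on the array and 16 above the filter. Of these 16 genes, 11 were lower and 5 higher in model than in control livers (median -0.27). Smallest in p were the glucuronosyltransferase Ugt2b1 at -1.71 (SE 0.987) and the cytochrome P450 Cyp2b3 at -0.64 (SE 0.383). In drug against model livers 12 were higher and 4 lower (median 0.45), with Nr1i3, which encodes CAR, at 1.62 (SE 0.623) and Ugt2b1 at 2.11 (SE 0.987). Both overlapped between drug and model arrays and were highest in drug 3, at 6.77 and 9.77. Nr1i3 and Cyp2b3 were highest in drug 3 and control 2, the arrays low in Xist. Cyp3a2, also of this list, was at 12.0 and 11.6 in them and at most 5.23 elsewhere. The part of sex in these differences was not tested. In drug against control livers 12 were higher and 4 lower (median 0.20), with Nr1i2, which encodes PXR, at 0.74 (SE 0.251) and Nr1i3 at 1.16 (SE 0.623). No gene of these lists passed, with limma adjusted p of 0.384 or more.

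**Figure D4:**
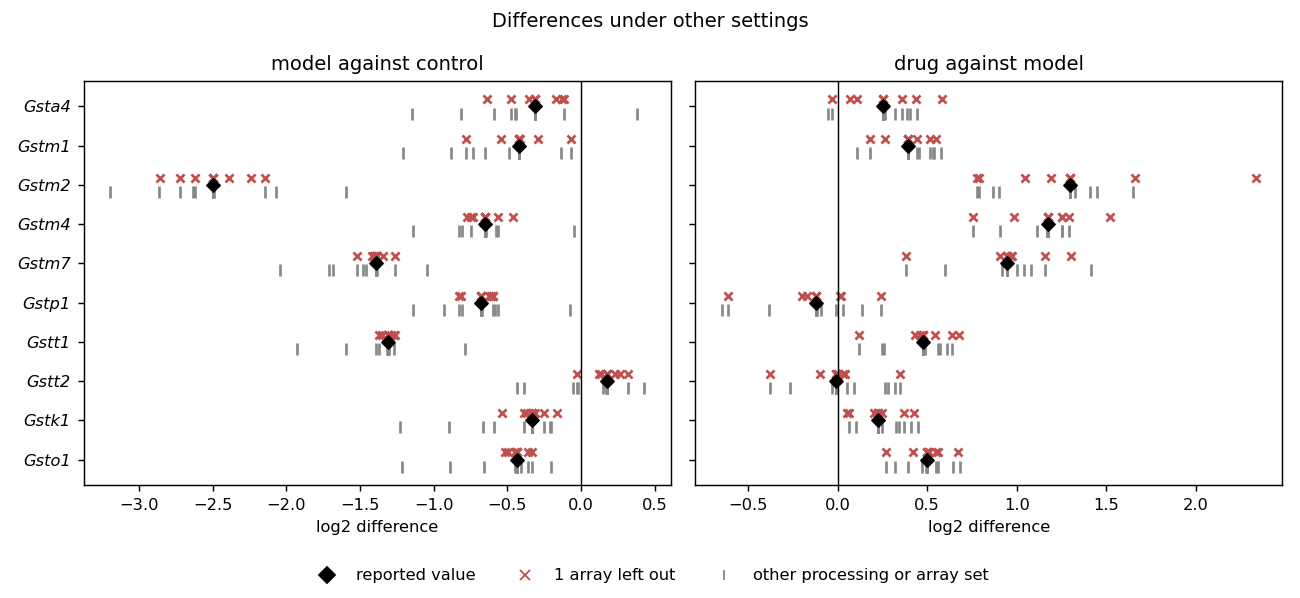
Log2 difference (horizontal axis) of each GST gene in model against control and drug against model livers as reported (diamonds), with 1 array left out (crosses) and under other processing or array sets (bars). All genes but Gsta4 and Gstt2 stay below 0 in the left panel under every setting drawn. In the right panel the values of Gsta4, Gstp1 and Gstt2 lie on both sides of 0, and the other genes stay above 0.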

How the data were processed

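Liver RNA of 9 rats was hybridised to 1 array each. The deposited values are linear signal intensities per probe set, made with GCOS 1.2 per the submitters' processing notes; the sources used here name neither its settings nor a scaling target. Of 31099 probe sets, 57 control probe sets were left out. Log2 intensities were quantile-normalized, which removes any difference in total signal, and probe sets at or above the 40th percentile of mean log2 signal were kept. Differences were fitted with limma 3.58.1 (R 4.3.3; lmFit, eBayes with intensity trend, 1 term a group, two-sided, all 9 arrays) and adjusted by Benjamini-Hochberg over 18625 probe sets. The code of the fit was checked on simulated data with independent noise, equal for all probe sets. That check does not show how the fit does with uneven or shared variation between arrays. Probe sets were named from the platform annotation (1 symbol only), and all 10 member symbols matched the RefSeq gene table through their Entrez identifiers. The probe set with the highest mean signal stood for its gene. A probe set's level was not set against another's. From each gene list, the 2 genes with the smallest unadjusted p per comparison were named where none passed, with the 5 nearest profiles of Gstm2 and of Gstt1. Members, lists and array sets were chosen with earlier results of these data known. Alternatives were other normalizations, an offset, other filters, no trend, array weights, only the groups compared, a replicate block, terms for the Gapdh ratio and for drug 3 with control 2, array sets left out and averaging the probe sets of a gene. The number of arrays limits the precision.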

Additional observations from a re-analysis of the deposited data

How the results depend on the processing

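Under 24 alternative settings, 720 differences of the 10 GST genes were refitted. Of these 670 kept their sign, 50 turned and 0 passed. In 20 of the 30 gene and comparison pairs the sign held under every setting tried.

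Over all probe sets, model against control gave 1 call without normalization, 4 with array weights, 3 with the replicate block and 1 without control 1 and drug 1; drug against model gave 1 without these arrays and 1 with only the groups compared; the F test gave 1 without normalization and 1 without control 1 and drug 1. Leaving out 1 array gave 0 to 1 calls in model against control, drug against model and the F test. Deviations of same-numbered arrays correlated between -0.0052 and 0.48, not over 0.1 in every pair, so the numbers were not used as pairs; the pairs of number 1 were at 0.20 to 0.48, and array 1 had the lowest Gapdh ratio and the highest trimmed mean in each group.

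For model against control, GST genes at an unadjusted p under 0.05 numbered 6 without normalization (8.72% of all probe sets), 5 with median centring (11.6%), 5 without control 1 and drug 1 (12.6%) and 5 with only the groups compared (16.1%); with 1 array left out they numbered 3 to 5 (6.19% to 17.5%). The median was -1.21 without normalization and -0.88 with median centring, with -0.40 and -0.072 over all probe sets. Trimmed mean scaling moved the median of all probe sets to 0.16. For drug against model, the lower genes numbered 0 without normalization and 1 with median centring, array weights, drug 3 and control 2 left out, a term for them, or the mean of probe sets (1 array left out: 0 to 2). Genes at an unadjusted p under 0.05 numbered 0 without normalization (0.999% of all) and 1 with the 60th percentile filter (3.47%), no trend (3.55%), drug 3 and control 2 left out (2.37%), a term for them (3.37%), or only the groups compared (2.29%), and 1 to 4 with 1 array left out (2.3% to 5.82%). Genes without overlap numbered 0 without normalization (5.51% of all) and 1 with median centring (7.46%), and 3 to 6 with 1 array left out (8.01% to 21.6%). For drug against control, genes at an unadjusted p under 0.05 numbered 2 without normalization (3.73% of all), with array weights (20.7%), the Gapdh term (8.56%), the term for drug 3 and control 2 (7.15%), or without drug 1 and control 1 (14.9%), and 0 to 3 with 1 array left out (3.9% to 20.2%). Genes without overlap numbered 0 without normalization (4.93% of all), with median centring (12.1%) and with the trimmed mean (11.8%), 3 without drug 3 and control 2 (26.2%), 2 without drug 1 and control 1 (52.5%), and 1 to 3 with 1 array left out (12.5% to 43%); fewer arrays leave more probe sets without overlap by construction. The median was -0.74 without normalization, -0.45 with median centring, -0.31 with the trimmed mean, -0.045 with array weights, -0.23 with the Gapdh term, -0.15 without drug 3 and control 2 and -0.26 without drug 1 and control 1 (-0.27 to 0.019, the last without drug 2).

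Signs turned in model against control for Gstt2 at -0.39 (no normalization), -0.058 (median centring), -0.44 (Gapdh term), -0.030 (without control 1 and drug 1) and -0.022 (mean of probe sets), and for Gsta4 at 0.38 (Gapdh term); Gstt2 ranged from -0.030 to 0.32 with 1 array left out. In drug against model they turned for Gstp1 at 0.029 (no normalization), 0.24 (without drug 3 and control 2) and 0.14 (term for them), with -0.61 to 0.24 when 1 array was left out; for Gstt2 at 0.091 (no normalization), 0.050 (median centring), 0.32 (array weights), 0.26 (Gapdh term), 0.35 (without drug 1 and control 1) and 0.28 (mean of probe sets), with -0.38 to 0.35; and for Gsta4 at -0.055 (Gapdh term) and -0.033 (without drug 1 and control 1), with -0.033 to 0.58. In drug against control they turned for Gsto1 at -0.53 (no normalization), -0.24 (median centring), -0.097 (trimmed mean), -0.046 (array weights) and -0.18 (without drug 1 and control 1), with -0.16 to 0.24; for Gstt2 at -0.30 (no normalization), -0.0081 (median centring), -0.18 (Gapdh term) and -0.057 (without drug 3 and control 2), with -0.20 to 0.52; for Gstm1 at 0.031 (array weights) and 0.11 (without drug 3 and control 2), with -0.39 to 0.32; for Gsta4 at 0.33 (Gapdh term), with -0.35 to 0.14; and for Gstk1 at 0.044 (array weights), with -0.27 to 0.034. The causes were not tested.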

Other observations

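Hmox1, the inducible haem oxygenase, which was chosen after its values were seen, was higher in every model than in every control array, by 1.41 (SE 0.583, limma adjusted p = 0.406), and lower in every drug than in every model array, with a difference of -1.17 (SE 0.583, limma adjusted p = 0.998). In the same direction as most GST genes, Ephx1, the microsomal epoxide hydrolase, also chosen after its values were seen, was lower in every model than in every control array, with a difference of -2.37 (SE 0.827, limma adjusted p = 0.384).

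Gsta3, an alpha class gene named here after its values were seen, stood at 6.20 in drug 3 and 5.54 in control 2, the arrays low in Xist, and at 7.29 to 8.77 in the other 7. Gstm7 was at its highest in the same arrays, at 9.14 and 8.71.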
